A study of Mus musculus with 56 samples.

Results

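The insulin-like growth factor (IGF) axis was followed in mouse adrenal glands through 10 genes chosen by name: the ligand genes Igf1 and Igf2, the receptor gene Igf1r, the non-coding RNA gene H19 that neighbours Igf2, and the binding protein genes Igfbp2, Igfbp3, Igfbp4, Igfbp5, Igfbp6 and Igfbp7. These 10 were taken from the 55487 gene identifiers of the count tables of females and males and the 55414 of the surgery table. Adrenal RNA of C57BL/6J mice was sequenced in 56 libraries, 4 mice in each of 14 groups. The conditional knockout (cKO) carried floxed Znrf3 and SF1-Cre, a transgene active in steroidogenic cells, and was set against littermates negative for SF1-Cre. Female cKO and control glands were taken at 6, 9 and 12 weeks, and male cKO and control glands at 4, 6 and 9 weeks. In the surgery series, male cKO mice aged 9 weeks had been castrated at week 4 or had undergone sham surgery at week 4. All 8 surgery mice were SF1-Cre+; Znrf3 Fx/Fx, and some also carried a reporter at R26: eYFP in 1 castrated and 2 sham mice, mTmG in 2 castrated and 1 sham mouse. Per the design text, the comparison was made to look for what accompanies the change from an enlarged gland to a regressing one.

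IGF1 and IGF2 are secreted peptides that bind the receptor tyrosine kinase encoded by Igf1r, which signals through insulin receptor substrates, PI3K, AKT and mTOR. The binding proteins hold the ligands in the extracellular space and can block or prolong their action, while Igfbp7 encodes a related secreted protein with low affinity for IGFs. Igf2 and H19 lie side by side in an imprinted region, Igf2 being expressed from the paternal and H19 from the maternal allele in mice. IGF2 is best known in the adrenal gland for its high level in human adrenocortical carcinoma.

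On GRCm38 (GENCODE M21), Igf1 lies at chr10:87858265-87937042 on the plus strand, Igf2 at chr7:142650766-142666816 and H19 at chr7:142575529-142578143, both on the minus strand, and Igf1r at chr7:67952827-68233668 on the plus strand. Igfbp2 (chr1:72824503-72852474, plus strand) and Igfbp5 (chr1:72857932-72874884, minus strand) are neighbours. Igfbp3 lies at chr11:7206086-7213923 (minus strand), Igfbp4 at chr11:99041244-99054392 (plus strand), Igfbp6 at chr15:102144362-102149511 (plus strand) and Igfbp7 at chr5:77349240-77408041 (minus strand).

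Promoter windows from RefSeq (GRCm38.p6), 250 bases before to 50 bases after an annotated start, were found for 9 of the 10 genes, 13 windows in all. Igf1 and the binding protein genes Igfbp4, Igfbp5 and Igfbp6 were lower after castration. For Igfbp2 the effect of the knockout differed between the sexes at 9 weeks. The 5 windows shown belong to these 5 genes. They lie at chr10:87860861-87861160 (plus strand) for Igf1, chr1:72824230-72824529 (plus strand) for Igfbp2, chr11:99040994-99041293 (plus strand) for Igfbp4, chr1:72874816-72875115 (minus strand) for Igfbp5 and chr15:102143936-102144235 (plus strand) for Igfbp6. Capitals mark matches, on either strand, to the motifs named below. Igfbp3 was also lower after castration, and its window, not shown, held 0 matches. Another Igfbp2 window, not shown, held 0 matches as well, and Igfbp2 was not called with castration.
Igf1: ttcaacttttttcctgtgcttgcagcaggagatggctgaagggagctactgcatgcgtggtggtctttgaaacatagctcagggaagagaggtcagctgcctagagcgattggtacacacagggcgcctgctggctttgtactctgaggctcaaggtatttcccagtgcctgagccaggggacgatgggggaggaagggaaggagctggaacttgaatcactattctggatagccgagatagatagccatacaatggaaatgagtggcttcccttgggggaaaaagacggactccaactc
Igfbp2: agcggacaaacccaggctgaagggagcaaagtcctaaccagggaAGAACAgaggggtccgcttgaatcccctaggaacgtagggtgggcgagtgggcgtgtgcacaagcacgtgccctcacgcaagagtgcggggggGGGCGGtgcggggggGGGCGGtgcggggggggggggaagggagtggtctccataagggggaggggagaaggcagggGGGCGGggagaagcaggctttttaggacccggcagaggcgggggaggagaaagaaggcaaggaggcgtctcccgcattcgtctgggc
Igfbp4: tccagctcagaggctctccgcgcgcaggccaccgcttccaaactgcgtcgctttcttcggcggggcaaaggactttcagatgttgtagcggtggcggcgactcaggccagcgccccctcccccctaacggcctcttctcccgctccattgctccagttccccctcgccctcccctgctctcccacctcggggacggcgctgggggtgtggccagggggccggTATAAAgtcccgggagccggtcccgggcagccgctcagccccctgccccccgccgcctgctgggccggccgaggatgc
Igfbp5: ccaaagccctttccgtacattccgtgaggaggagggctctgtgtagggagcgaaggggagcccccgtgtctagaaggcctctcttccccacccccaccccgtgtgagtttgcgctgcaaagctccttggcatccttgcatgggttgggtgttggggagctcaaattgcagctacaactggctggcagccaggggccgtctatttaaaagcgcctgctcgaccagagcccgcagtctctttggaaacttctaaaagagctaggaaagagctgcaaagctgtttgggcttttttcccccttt
Igfbp6: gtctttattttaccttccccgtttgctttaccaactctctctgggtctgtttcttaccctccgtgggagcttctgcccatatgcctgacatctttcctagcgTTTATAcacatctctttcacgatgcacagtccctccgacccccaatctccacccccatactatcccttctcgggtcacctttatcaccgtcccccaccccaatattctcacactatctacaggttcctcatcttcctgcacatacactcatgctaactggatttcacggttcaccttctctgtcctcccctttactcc

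The androgen receptor motif TGTTCT (or AGAACA) was searched because the surgery removed the testes. It was present in 2 of the 13 windows, and in 18.97% of the 32851 promoter windows of the genome. In Igfbp2 it begins 206 bases before the start, and the other match lies 85 bases before one of the annotated Igf2 starts (window chr7:142666767-142667066). The TCF/LEF motif CTTTGAT (or ATCAAAG), found in 3.73% of all windows, and the SF1 motif CAAGGTCA (or TGACCTTG), found in 1.56%, matched 0 of the 13. A TATA box TATAAA (or TTTATA) was present in 2 of 13 windows, against 13.6% of all, and lay 28 bases before the start in Igfbp4. A GC box GGGCGG (or CCGCCC) was present in 5 of 13, against 35.7% of all, with 3 copies in Igfbp2. None of the 5 motifs matched the windows of Igf1 and Igfbp5. A match is a description of the letters and no evidence of binding, and none of these files measures binding.

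Levels are given as CPM, read counts scaled to a common library total, after scaling by trimmed mean of M-values (TMM) factors, and fold changes come from the quasi-likelihood test of edgeR. P-values were adjusted over all genes tested (Benjamini-Hochberg), and a gene was called at an adjusted p under 0.05. Errors after ± are SD for levels (n = 4) and approximate SE for log2 fold changes. Total counts per library ran from 35694300 to 51604600 in females, 12432000 to 35531000 in males and 25145500 to 42411400 in the surgery series. The 8 genes of the adrenal cortex list were detected in every group, summing to between 26855 and 78901 CPM. The summed count of Znrf3 was higher, not lower, in cKO glands of both sexes (log2 fold change 0.49 to 1.13), which does not check a deletion of part of the gene. Liver transcripts (5 genes) summed to 352 CPM in female 12-week cKO replicate 2, 106 CPM in male 4-week cKO replicate 2, 93.3 CPM in male 9-week cKO replicate 3 and 69.5 CPM in male 6-week cKO replicate 2. Because liver is rich in Igf1 and Igfbp2 RNA, the cKO over control results of these genes are also given without those libraries. Their age changes and changes of effect with age are given only with them. Of the male libraries, those with a title number above 24 were 0 of 4 cKO glands and 3 of 4 controls at 4 weeks, 0 of 4 cKO glands and 4 of 4 controls at 6 weeks, and 2 of 4 in both groups at 9 weeks. In the surgery series sham replicate 1 stood apart from the other sham libraries: 9.87% of its counts were mitochondrial (2.41 to 3.11% in the others) and 6.01% fell on its largest gene (1.02 to 1.21% in the others). Its counts differed from those of the other shams by a chi-square of 279 to 324 per gene. Among the other shams this was 25.03 to 39.3, and within any other group at most 90.03. The castration results of the IGF axis genes are therefore also given without this library. Those of the cell type markers and of the other gene lists include it. In bulk tissue, fewer cells of a type and less RNA per cell cannot be told apart.

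Per kilobase of exon, the 10 genes spanned a wide range. Among the female group means, Igfbp7 lay highest at 503 to 815 CPM per kb, and Igfbp3 followed at 44.9 to 63.4. The ranges of Igfbp5 (13 to 43.5), Igfbp6 (6.30 to 29) and Igfbp4 (16.2 to 23.5 CPM per kb) overlapped, so these have no fixed order. Igf1r (9.35 to 11.6 CPM per kb) lay below Igfbp4 and Igfbp5 and within the range of Igfbp6. Igf1 (1.08 to 2.41), Igfbp2 (0.671 to 1.86) and H19 (0.283 to 1.09 CPM per kb) were lower and also overlapped. The surgery groups put the same gene at the top, Igfbp7 with 687 and 958 CPM per kb. Igf2 cannot be placed on this scale: 62.8% of its exonic bases are shared on the same strand with Gm49394, an Ins2-Igf2 readthrough gene that had a count of 0 in all 56 libraries, and the sources used here do not say to which gene such reads were assigned.

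Of the 10 genes, 6 changed in cKO females at 6 weeks, while 33.4% of all 18645 genes tested did: 1 was higher (14.2% of all genes) and 5 were lower (19.1%). At 9 weeks 7 changed (34.6% of all genes), 1 higher (14.6%) and 6 lower (20%), and at 12 weeks 4 changed (25.1%), 2 higher (9.11%) and 2 lower (16%). Without cKO replicate 2, the 12-week library with liver transcripts, 5 of the 10 were lower. Of all genes 2577 to 2923 were lower at 12 weeks with 1 library left out, against 2976 with all. In cKO males 3 of the 10 changed at 4 weeks (19.2% of 17086 genes), 0 higher (6.29%) and 3 lower (12.9%). At 6 weeks 3 changed (20.1%), 1 higher (8.19%) and 2 lower (11.9%), and at 9 weeks 4 changed (24.1%), 2 higher (10.4%) and 2 lower (13.6%). With 10 genes, these shares are coarse beside the background. The median log2 fold change of the 10 was -0.35, -0.65 and -0.40 in females and -0.42, -0.05 and -0.01 in males, in order of age, against -0.02 to 0.01 for all genes. Igf2 and Igfbp6 were lower in all 6 of these comparisons. Igf1 was higher in females at 12 weeks and in males at 6 and 9 weeks, and Igf1r passed the test in none of the 6.

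**Figure D1:**
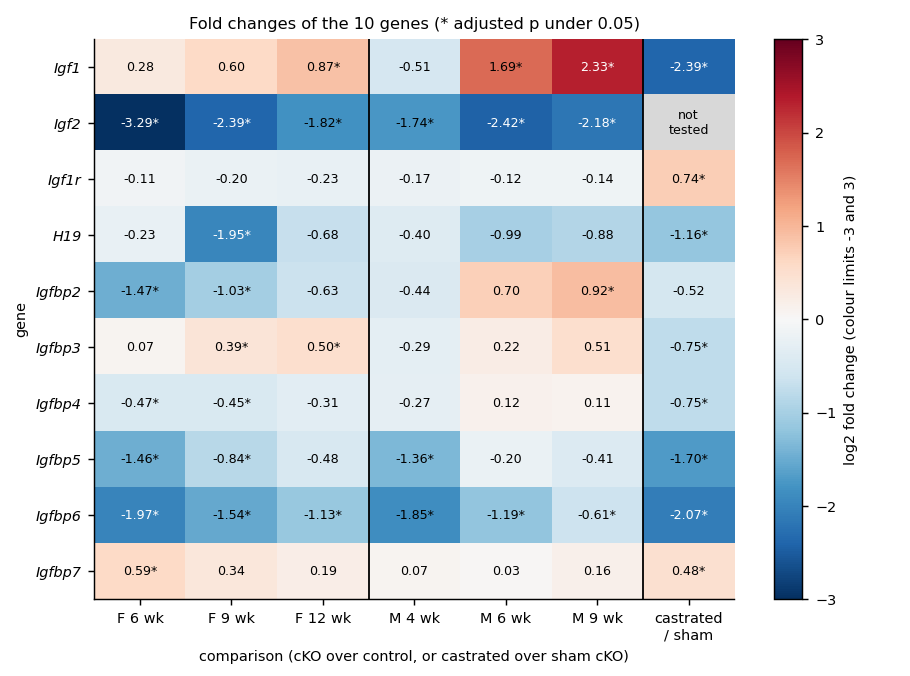
Log2 fold changes of the 10 genes (rows) in the 6 cKO over control comparisons and in castrated over sham cKO glands (columns), with colour from blue (lower) to red (higher) and an asterisk where the adjusted p is under 0.05. Igf2 and Igfbp6 are blue in every cKO column, and Igf1 is red in males at 6 and 9 weeks and blue in the castration column.

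Igf1, the ligand that carries most postnatal growth hormone action, was higher in older cKO glands. In males at 9 weeks it stood at 19.5, 44.9, 58.0 and 96.6 CPM in cKO glands, against 11.6, 8.51, 12.1 and 11.4 CPM in controls. All 4 cKO glands lay above all 4 controls, and the cKO glands were widely spread, with replicate 1 lowest and replicate 4 highest. The fold was 5.02 (log2 2.33 ± 0.35, adjusted p = 4.42e-05). At 6 weeks male cKO glands held 37.6, 41.0, 18.8 and 39.8 CPM, against 13.2, 6.81, 9.82 and 12.6 CPM in controls, a 3.23-fold rise (log2 1.69 ± 0.35, adjusted p = 0.00127). At 4 weeks the male values overlapped, at 4.80, 12.9, 7.22 and 10.7 CPM in cKO glands and 12.1, 13.2, 11.3 and 13.3 CPM in controls (log2 -0.51 ± 0.36, adjusted p = 0.353). Without the libraries with liver transcripts the log2 fold change was 2.32 at 9 weeks (adjusted p = 0.000176), 1.63 at 6 weeks (adjusted p = 0.00432) and -0.72 at 4 weeks (adjusted p = 0.211). Within title numbers up to 24, 2 cKO glands against 2 controls, the 9-week value was 1.68 (adjusted p = 0.0868), and with the number range as a covariate it was 2.24 (adjusted p = 4.39e-05). At 6 weeks number range and genotype coincide and cannot be told apart within that age; a covariate estimated from the other ages gave 2.27 (adjusted p = 0.00104).

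In females Igf1 passed the test at 12 weeks only. At that age cKO glands held 19.9, 29.2, 23.8 and 22.7 CPM, against 8.89, 15.7, 10.8 and 16.9 CPM in controls, without overlap (1.83-fold, log2 0.87 ± 0.25, adjusted p = 0.0117). Without cKO replicate 2, the library with liver transcripts and the highest Igf1 value, the log2 fold change was 0.76 (adjusted p = 0.0409). At 9 weeks the groups did not overlap either, with 20.9, 17.7, 15.2 and 14.5 CPM in cKO glands and 13.4, 9.91, 11.1 and 10.5 CPM in controls, but the test was not passed (log2 0.60 ± 0.25, adjusted p = 0.0628). It was passed with DESeq2 (0.62, adjusted p = 0.034) and in a fit of these 8 libraries alone (0.62, adjusted p = 0.00641). At 6 weeks the values were 9.13, 13.5, 10.1 and 19.4 CPM in cKO glands and 7.62, 8.88, 16.9 and 9.50 CPM in controls (log2 0.28 ± 0.25, adjusted p = 0.41).

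Macrophage transcripts were higher wherever Igf1 was called in cKO glands, and also in females at 6 and 9 weeks, where Igf1 was not called. The 12 macrophage markers (among them Cd68, Csf1r, Adgre1, C1qa and Lyz2, none at 0 in any group) summed to 1061, 2471, 2245 and 5785 CPM in male 9-week cKO replicates 1 to 4, against 449 to 570 CPM in controls. The cKO library with the lowest sum was also the one with the lowest Igf1, and the highest was the highest. At 6 weeks the sums were 2627, 2451, 812 and 1759 CPM in male cKO glands and 365 to 442 CPM in controls. Replicate 3 was again lowest in both measures, but the highest sum was in replicate 1 and the highest Igf1 in replicate 2. In male cKO glands at 4 weeks the sums were 271, 724, 417 and 586 CPM, against 233 to 391 CPM in controls. Of the 12 markers only 1, C1qb, rose there (6.29% of all genes) and 1, Cd163, fell (12.9%). In females at 12 weeks they were 980, 1754, 1167 and 1419 CPM in cKO glands and 360 to 562 CPM in controls. At 9 weeks female sums were 500 to 1028 CPM in cKO glands and 283 to 362 CPM in controls. At 6 weeks they were 466 to 1334 CPM in cKO glands and 256 to 468 CPM in controls. Lowest and highest cKO library were the same in both measures in females at 6 and 12 weeks and males at 4 weeks. In female 9-week cKO glands the highest was the same, but the lowest sum was in replicate 3 and the lowest Igf1 in replicate 4. Rises passed the test for 9 of 12 markers in males at 9 weeks (10.4% of all genes) and 10 of 12 at 6 weeks (8.19%). In females they did for 8, 9 and 7 of 12 at 6, 9 and 12 weeks (14.2, 14.6 and 9.11% of all genes). Cd163 went the other way, with a called fall in females at 6 weeks and in males at 4 and 6 weeks. The part of these cells in the Igf1 result was not tested.

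**Figure D2:**
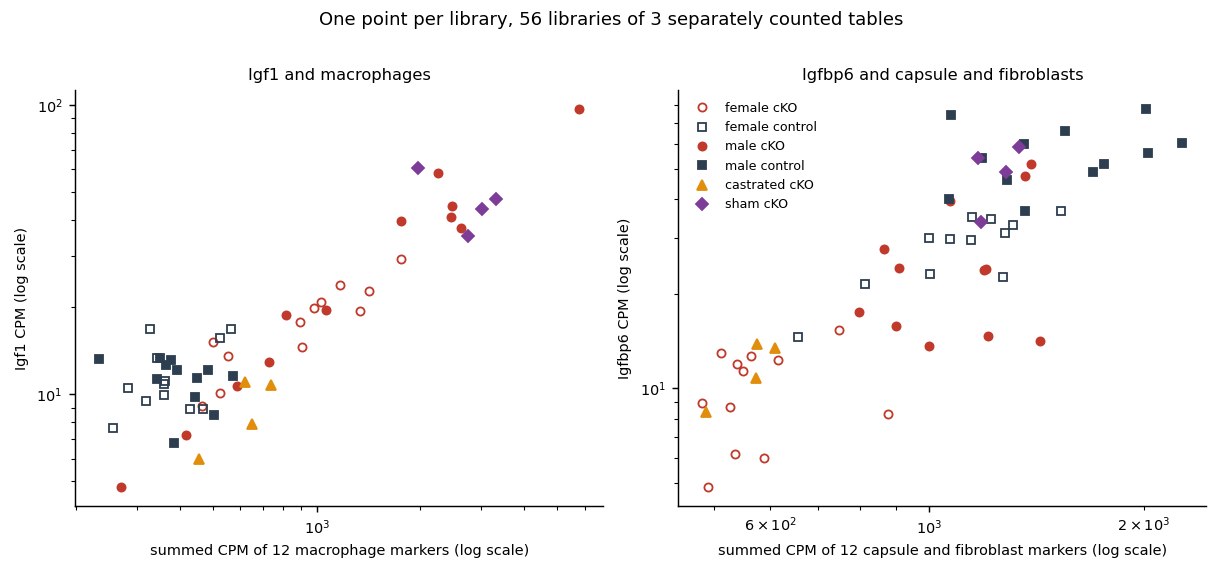
Igf1 (left) and Igfbp6 (right) in CPM against the summed CPM of 12 macrophage markers and of 12 capsule and fibroblast markers, 1 point per library, both axes on log scales. On the left, castrated cKO glands lie at 5.98 to 11 CPM of Igf1 with sums of 455 to 736 CPM. Sham cKO glands lie at 35.2 to 60.8 CPM with sums of 1968 to 3321 CPM, and the sham gland with the highest Igf1 has the lowest sum. The tables were counted separately, so positions are compared within a table only.

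Igf2, the ligand best known from fetal growth, had few reads assigned in all groups, with counts of 0 to 51 per library, and fell in all 6 cKO comparisons. In females at 6 weeks it was at 0.160, 0.0391, 0.0484 and 0.0883 CPM in cKO glands, against 0.711, 0.554, 1.19 and 0.907 CPM in controls. Every cKO gland lay below every control, and the log2 fold change was -3.29 ± 0.46 (adjusted p = 6.43e-06). The groups were also apart at 9 weeks (0.0271 to 0.287 CPM in cKO glands, 0.690 to 1.20 CPM in controls; log2 -2.39 ± 0.42, adjusted p = 0.000135) and at 12 weeks (0.162 to 0.325 CPM in cKO glands, 0.633 to 1.18 CPM in controls; -1.82 ± 0.41, adjusted p = 0.00194). The difference between the effects at 12 and 6 weeks was 1.47 ± 0.62 on the log2 scale and did not pass (adjusted p = 0.405).

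In males at 6 weeks Igf2 was at 0.299, 0.0555, 0.328 and 0 CPM in cKO glands, against 1.38, 0.812, 0.717 and 0.788 CPM in controls (log2 -2.42 ± 0.58, adjusted p = 0.00419). At 9 weeks the levels were 0.458, 0.113, 0.239 and 0.165 CPM in cKO glands and 1.08, 0.908, 1.78 and 0.791 CPM in controls (log2 -2.18 ± 0.51, adjusted p = 0.00347). At both ages all cKO glands lay below all controls. At 4 weeks the cKO glands held 0.258, 0.306, 0.117 and 0.146 CPM, a range that took in control replicate 4 at 0.249 CPM, while the other controls were at 0.824, 1.01 and 0.858 CPM (log2 -1.74 ± 0.54, adjusted p = 0.0249). That call was lost without cKO replicate 3 or 4 or control replicate 2 or 3 (log2 -1.62 to -1.52, adjusted p 0.0647 to 0.0741). It was lost as well with the title number range as a covariate (-1.75, adjusted p = 0.0835) or within numbers up to 24, where 1 control remains (-1.90, adjusted p = 0.355). Within numbers up to 24 the 9-week value was -1.75 (adjusted p = 0.294), and with the covariate the 6- and 9-week values were -2.44 (adjusted p = 0.0367) and -2.18 (adjusted p = 0.00437). The readthrough gene shares most Igf2 exons, so these folds describe reads assigned to Igf2 only.

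Chromaffin cell genes were lower alongside Igf2: all 10 medulla markers tested fell in each of the 6 cKO comparisons, with medians of -3.23 in females at 6 weeks, -2.85 at 9 and -2.94 at 12, and of -2.57 in males at 4 weeks, -3.19 at 6 and -2.49 at 9. Of 6 zona glomerulosa markers, 6, 6 and 5 fell in females at 6, 9 and 12 weeks and 5, 4 and 4 in males at 4, 6 and 9 weeks, and of 6 Schwann cell markers 5, 5 and 5 fell in females and 6, 5 and 4 in males. Of the X-zone markers, those tested fell in females at all 3 ages (2 of 2) and in males at 4 weeks (1 of 1). In males at 4 weeks the X-zone sum was 265 CPM in control replicate 2 and 0.810 to 2.15 CPM in the other controls. It was 0 to 0.073 CPM in cKO glands of that age, so the size of this fall rests on 1 control library. Of all genes 19.1, 20 and 16% fell in females and 12.9, 11.9 and 13.6% in males, in order of age. Of 9 endothelial markers 8, 8 and 3 fell in females and 3, 0 and 0 in males, in order of age. Of the same 9, 1, 1 and 1 rose in females and 0, 4 and 2 in males. Of all genes 14.2, 14.6 and 9.11% rose in females and 6.29, 8.19 and 10.4% in males. The part of these cells in the changes of Igf2 and of the binding protein genes was not tested.

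H19, a maternally expressed long non-coding RNA whose gene ends 72.6 kb from Igf2, was lower in 1 of the 6 comparisons. In females at 9 weeks it was at 0.614, 0.717, 0.857 and 0.597 CPM in cKO glands, against 2.35, 3.98, 1.46 and 2.97 CPM in controls (log2 -1.95 ± 0.28, adjusted p = 9.82e-06). No cKO value reached the lowest control. At 6 weeks the female groups overlapped (1.39 to 2.11 CPM in cKO glands, 1.66 to 2.84 CPM in controls), and at 12 weeks cKO replicate 2 stood at 1.42 CPM, above the lowest control of 1.31 CPM, while the other cKO glands were at 0.696, 0.849 and 0.742 CPM. Without that replicate the 12-week log2 fold change was -0.96 (adjusted p = 0.0153), against -0.68 with it (adjusted p = 0.0703). In males the groups overlapped at every age, with log2 fold changes of -0.40 at 4, -0.99 at 6 and -0.88 at 9 weeks, and the 6-week value was -2.09 (adjusted p = 0.0246) without cKO replicate 3. Control replicate 2 at 4 weeks held 8.57 CPM, against 3.31 to 3.86 CPM in the other controls of that age; without it the 4-week value was 0.07.

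Igf1r, the receptor gene, was not called in any cKO comparison. Its log2 fold change lay between -0.23 and -0.11, and cKO and control libraries overlapped in all 6. In females at 12 weeks, where the estimate was lowest, cKO glands held 184, 145, 151 and 152 CPM, against 202, 178, 201 and 161 CPM in controls (95% interval -0.50 to 0.04). In males at 9 weeks cKO glands held 110, 95.1, 83.3 and 85.9 CPM, against 111, 95.6, 119 and 86.1 CPM in controls (95% interval -0.52 to 0.24).

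**Figure D3:**
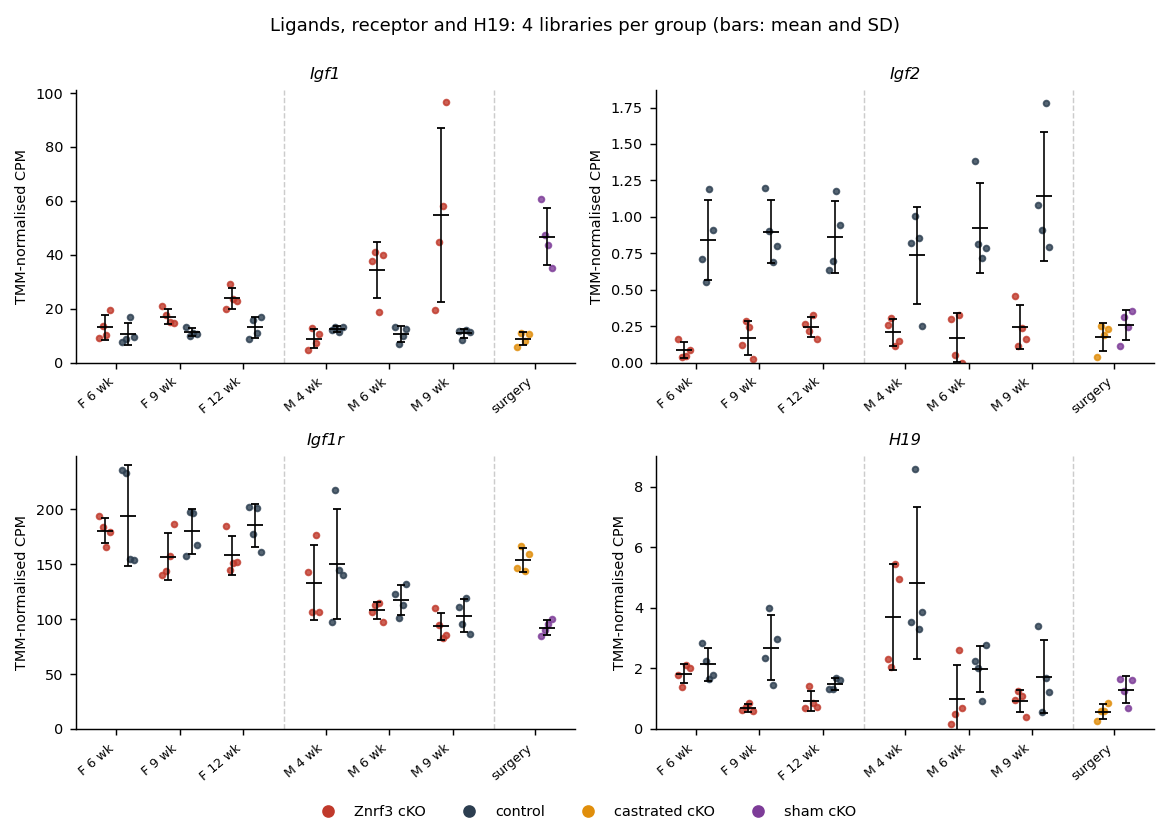
CPM of Igf1, Igf2, Igf1r and H19 in each library (points), with mean and SD (black), for cKO and control glands by sex and age and for castrated and sham cKO glands; axes start at 0. Igf1 in male cKO glands spreads from 19.5 to 96.6 CPM at 9 weeks, against 8.51 to 12.1 CPM in controls, while the Igf1r points of cKO and control glands overlap at each age.

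Igfbp6 encodes a binding protein with a preference for IGF2, and it fell in all 6 cKO comparisons. In females at 6 weeks it was at 6.00, 4.85, 8.26 and 8.94 CPM in cKO glands, against 23.1, 29.6, 22.5 and 34.5 CPM in controls (3.92-fold lower, log2 -1.97 ± 0.26, adjusted p = 3.9e-06). At 9 weeks cKO glands held 12.3, 11.9, 11.3 and 8.71 CPM and controls 33, 31.1, 29.8 and 35.1 CPM (log2 -1.54 ± 0.26, adjusted p = 7.45e-05). At both ages the groups were far apart. At 12 weeks cKO replicate 2, at 15.4 CPM, lay above control replicate 1, at 14.6 CPM, and the remaining values lay at 6.19 to 12.9 CPM in cKO glands and 21.4 to 36.6 CPM in controls (log2 -1.13 ± 0.26, adjusted p = 0.00236). In males at 4 weeks cKO glands held 17.5, 13.6, 14.7 and 14.1 CPM, against 48.8, 51.6, 60.3 and 56 CPM in controls (3.61-fold lower, log2 -1.85 ± 0.21, adjusted p = 5.93e-07). At 6 weeks the levels were 15.8, 24.2, 23.9 and 23.8 CPM in cKO glands and 77.3, 39.9, 46.1 and 36.6 CPM in controls (log2 -1.19 ± 0.20, adjusted p = 0.000162). At 9 weeks the male groups had drawn closer, with 27.6, 47.2, 51.8 and 39.4 CPM in cKO glands and 65.7, 74.0, 59.7 and 54.0 CPM in controls (log2 -0.61 ± 0.20, adjusted p = 0.0282).

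The male 9-week call of Igfbp6 was lost without cKO replicate 1 or 4 or control replicate 1, 2 or 3 (log2 -0.61 to -0.45, adjusted p 0.0553 to 0.0973). Within title numbers up to 24 it was -0.90 (adjusted p = 0.0613) at 9 weeks and -1.70 (adjusted p = 0.00233) at 4 weeks. With the number range as a covariate it was -1.82 (adjusted p = 1.61e-05) at 4, -1.14 (adjusted p = 0.00733) at 6 and -0.61 (adjusted p = 0.0313) at 9 weeks.

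Sums of capsule and fibroblast transcripts were lower with Igfbp6, without overlap, in females at 6 and 9 weeks and in males at 4 weeks. Their 12 markers (among them Pdgfra, Col1a1, Col1a2, Lum and Gli1, none at 0 in any group) summed to 482 to 878 CPM in female 6-week cKO glands, against 1004 to 1271 CPM in controls, and to 526 to 615 CPM at 9 weeks, against 1069 to 1310 CPM. In males at 4 weeks the sums were 797 to 1433 CPM in cKO glands and 1699 to 2264 CPM in controls. The sums overlapped in females at 12 weeks, at 511 to 749 CPM in cKO glands and 656 to 1530 CPM in controls. In males they overlapped at 6 weeks, at 899 to 1203 CPM in cKO glands and 1068 to 2013 CPM in controls. They also did at 9 weeks, at 866 to 1389 CPM in cKO glands and 1074 to 1551 CPM in controls. Of the 12, 8, 10 and 9 fell in females at 6, 9 and 12 weeks and 8, 7 and 4 in males at 4, 6 and 9 weeks. Pdgfrb rose in males at 6 weeks. Of all genes 19.1, 20 and 16% fell in females and 12.9, 11.9 and 13.6% in males. The part of these cells in the Igfbp6 result was not tested.

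Igfbp5 encodes a binding protein that attaches to extracellular matrix. In females at 6 weeks it was at 49.1, 90.6, 77.1 and 95.7 CPM in cKO glands, against 172, 199, 254 and 232 CPM in controls (log2 -1.46 ± 0.20, adjusted p = 4.9e-06). At 9 weeks the levels were 143, 125, 149 and 167 CPM in cKO glands and 270, 265, 213 and 299 CPM in controls (log2 -0.84 ± 0.20, adjusted p = 0.00189). Neither age showed overlap. At 12 weeks the ranges met, 151 to 209 CPM in cKO glands and 161 to 334 CPM in controls (log2 -0.48 ± 0.20, adjusted p = 0.0768), and without control replicate 4, the lowest control, the value was -0.65 (adjusted p = 0.0134). In males the fall was seen at 4 weeks, with 79.5, 97.2, 58.3 and 110 CPM in cKO glands and 175, 183, 273 and 252 CPM in controls (log2 -1.36 ± 0.19, adjusted p = 1.28e-05). Within title numbers up to 24 it was -1.01 (adjusted p = 0.0765), and with the covariate -1.26 (adjusted p = 0.000463). The male groups overlapped at 6 and 9 weeks (log2 -0.20 and -0.41, neither called).

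Igfbp2, a binding protein gene strongly expressed in liver and brain, was lower in cKO females at 6 and 9 weeks. In cKO males it was called at 9 weeks only, as a rise that several other fits lost. In females at 6 weeks it was at 1.3, 1.06, 1.19 and 1.41 CPM in cKO glands, against 3.29, 3.10, 4.11 and 3.26 CPM in controls (log2 -1.47 ± 0.26, adjusted p = 9.59e-05). At 9 weeks the levels were 1.61, 1.39, 1.31 and 1.00 CPM in cKO glands and 2.75, 1.73, 2.81 and 3.58 CPM in controls (log2 -1.03 ± 0.26, adjusted p = 0.00317). The groups did not overlap at either age. At 12 weeks cKO replicate 2, the library with liver transcripts, held 2.97 CPM, above all controls (2.42 to 2.90 CPM), while the other cKO glands held 1.02, 1.6 and 1.23 CPM. The 12-week log2 fold change was -0.63 ± 0.25 (adjusted p = 0.0713) with it and -1.04 (adjusted p = 0.00126) without it. In males at 9 weeks cKO glands held 3.31, 5.2, 4.25 and 2.81 CPM and controls 1.62, 2.96, 1.69 and 1.93 CPM (log2 0.92 ± 0.32, adjusted p = 0.0373). This rise was lost without cKO replicate 3, the library with liver transcripts (0.90, adjusted p = 0.0817), and without cKO replicate 2 or control replicate 1, 3 or 4 (0.75 to 0.91, adjusted p 0.0789 to 0.134). It was also lost without the low-count filter (0.92, adjusted p = 0.0512) and within title numbers up to 24 (0.88, adjusted p = 0.395). At 4 and 6 weeks the male groups overlapped (log2 -0.44 and 0.70, neither called). The 4-week value was -0.59 without cKO replicate 2, the library with liver transcripts of that age. At 6 weeks cKO replicate 2 has liver transcripts and the highest level, 5.38 CPM, and without it the value was 0.45 (adjusted p = 0.409). Without cKO replicate 4, the lowest cKO gland, the 6-week value was 0.95 (adjusted p = 0.0424).

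The remaining binding protein genes moved less. Igfbp4, whose protein is cut by the protease PAPP-A to release IGF, was lower in females at 6 weeks, at 68.6, 74.1, 74.1 and 68.6 CPM in cKO glands and 83.5, 99.6, 113 and 98.5 CPM in controls (log2 -0.47 ± 0.12, adjusted p = 0.00494). At 9 weeks it was at 69.9 to 85.0 CPM in cKO glands and 99.5 to 111 CPM in controls (log2 -0.45 ± 0.12, adjusted p = 0.00652). At 12 weeks in females (log2 -0.31, adjusted p = 0.0662) it passed the test only without cKO replicate 2 or control replicate 1 or 2 (-0.42 to -0.37, adjusted p 0.00857 to 0.0448) or with library totals alone (-0.36, adjusted p = 0.0489). It passed at no male age (log2 -0.27, 0.12 and 0.11 at 4, 6 and 9 weeks), except at 4 weeks without cKO replicate 2 (-0.32, adjusted p = 0.0334). Igfbp3, the main IGF carrier of plasma, was slightly higher in cKO females at 9 weeks, at 180, 198, 228 and 172 CPM against 122, 167, 164 and 137 CPM in controls (log2 0.39 ± 0.15, adjusted p = 0.0402). It was also higher at 12 weeks, at 199, 223, 152 and 220 CPM in cKO glands and 114, 138, 132 and 177 CPM in controls (log2 0.50 ± 0.15, adjusted p = 0.0143). The 9-week call was lost without cKO replicate 2 or 3 or control replicate 1 or 4 (0.31 to 0.39, adjusted p 0.0736 to 0.138) and with library totals alone (0.36, adjusted p = 0.0744), and the 12-week call without control replicate 1 (0.41, adjusted p = 0.0546). Igfbp7 was higher in cKO females at 6 weeks, at 810, 966, 888 and 1277 CPM against 598, 670, 640 and 711 CPM in controls (log2 0.59 ± 0.15, adjusted p = 0.00379), and passed the test in no other cKO comparison (log2 0.03 to 0.34), except in females at 9 weeks without cKO replicate 3 (0.43, adjusted p = 0.0432), with only the libraries compared (0.36, adjusted p = 0.0343) or with the replicate number as a block (0.33, adjusted p = 0.0267). In males at 9 weeks Igfbp3 was at 0.51 (adjusted p = 0.0609) and passed without cKO replicate 3 (0.60, adjusted p = 0.0491), without control replicate 4 (0.69, adjusted p = 0.02), with DESeq2 (0.52, adjusted p = 0.0339), with a filter of CPM 5 in 4 libraries (0.53, adjusted p = 0.0463), with the replicate number as a block (0.54, adjusted p = 0.0306) and within title numbers up to 24 (0.91, adjusted p = 0.0301).

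**Figure D4:**
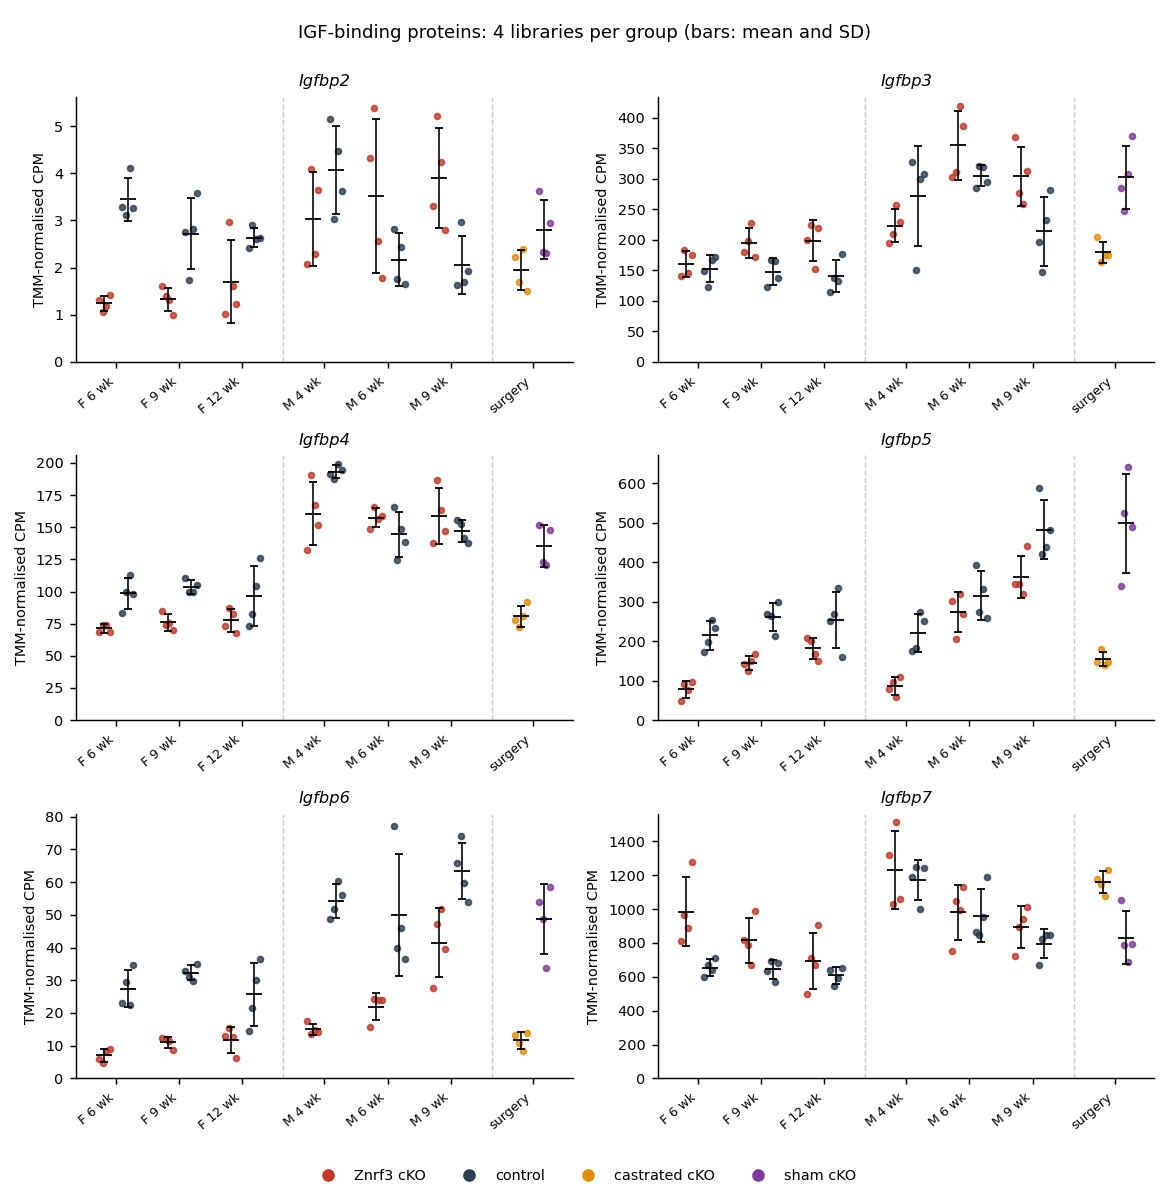
CPM of the 6 binding protein genes in each library (points), with mean and SD (black), for cKO and control glands by sex and age and for castrated and sham cKO glands; axes start at 0. Igfbp6 in male cKO glands lies at 13.6 to 17.5 CPM at 4 weeks and 27.6 to 51.8 CPM at 9 weeks, against 48.8 to 60.3 and 54.0 to 74.0 CPM in controls.

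Castration of male cKO mice changed 8 of the 9 genes that could be tested (43.6% of all 16961 genes did): 6 were lower (23.8% of all genes) and 2 higher (19.8%) in castrated than in sham cKO glands. Their median log2 fold change was -0.75, against -0.01 for all genes. Without sham replicate 1, 5 were lower and 2 higher, and of all genes 4282 were lower and 3854 higher (4039 and 3363 with it). Igf1 fell to 5.98, 11, 7.90 and 10.8 CPM in castrated glands, against 60.8, 47.3, 43.8 and 35.2 CPM in sham glands. The highest castrated gland lay far below the lowest sham gland, and the fold was 5.24 lower (log2 -2.39 ± 0.22, adjusted p = 2.29e-05). Igfbp6 was at 13.4, 10.7, 8.42 and 13.8 CPM in castrated glands, against 53.9, 48.8, 33.8 and 58.5 CPM in sham glands (4.21-fold lower, log2 -2.07 ± 0.20, adjusted p = 3.1e-05). Igfbp5 was at 148, 180, 141 and 147 CPM in castrated glands, against 339, 525, 641 and 489 CPM in sham glands (3.24-fold lower, log2 -1.70 ± 0.18, adjusted p = 5.7e-05). Neither gene showed overlap.

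Igfbp4 and Igfbp3 fell less. Igfbp4 was at 77.5, 72.3, 81.0 and 91.8 CPM in castrated glands and 151, 123, 120 and 148 CPM in sham glands (log2 -0.75 ± 0.12, adjusted p = 0.000642). Igfbp3 was at 205, 163, 175 and 174 CPM in castrated glands and 284, 247, 307 and 369 CPM in sham glands (log2 -0.75 ± 0.14, adjusted p = 0.00148). Igf1r went the other way, with 146, 166, 144 and 159 CPM in castrated glands and 84.7, 89.8, 95.2 and 99.7 CPM in sham glands (1.67-fold, log2 0.74 ± 0.10, adjusted p = 0.000219). In all 3 genes the groups were apart. Igfbp7 was at 1175, 1149, 1076 and 1231 CPM in castrated glands and 1054, 790, 686 and 795 CPM in sham glands (log2 0.48 ± 0.15, adjusted p = 0.0238).

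H19 was at 0.258, 0.594, 0.605 and 0.847 CPM in castrated glands and 1.64, 1.25, 0.679 and 1.63 CPM in sham glands, with overlap (log2 -1.16 ± 0.40, adjusted p = 0.0367). Its call was lost without castrated replicate 1, 2 or 3 or sham replicate 1, 2 or 4 (-1.17 to -0.92, adjusted p 0.0643 to 0.0952), with the reporter allele as a covariate (-1.16, adjusted p = 0.0656) and without the low-count filter (-1.09, adjusted p = 0.0536). Igfbp2 did not pass, at 1.50 to 2.39 CPM in castrated glands and 2.31 to 3.63 CPM in sham glands (log2 -0.52 ± 0.25, adjusted p = 0.111). Igf2 had counts of 1, 8, 7 and 7 in castrated glands and 3, 11, 9 and 16 in sham glands and was left out by the low-count filter; without the filter its log2 fold change was -0.47 (adjusted p = 0.58).

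Without sham replicate 1 the log2 fold changes were -2.24 for Igf1 (adjusted p = 2.02e-05), -2.02 for Igfbp6 (adjusted p = 4.9e-05), -1.84 for Igfbp5 (adjusted p = 3.53e-06), -0.69 for Igfbp4 (adjusted p = 0.000582) and -0.78 for Igfbp3 (adjusted p = 0.00108). Igf1r was at 0.70 (adjusted p = 0.000133) and Igfbp7 at 0.61 (adjusted p = 0.000668), so these 7 calls stayed, and H19 was at -1.03 (adjusted p = 0.0654).

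Scaling matters for this comparison: with library totals alone the median log2 fold change of all genes was -0.21, against -0.01 with TMM. Calls then split into 1687 higher and 5326 lower genes, against 3363 higher and 4039 lower with TMM. All 8 called members kept their direction under both scalings, Igf1r at 0.54 (adjusted p = 0.00247) with totals alone, but Igfbp7 was no longer called (0.29, adjusted p = 0.12) and Igfbp2 was (-0.71, adjusted p = 0.0357). The Igfbp7 call was also lost without castrated replicate 4 or sham replicate 2, 3 or 4 (0.40 to 0.46, adjusted p 0.0546 to 0.0609) and with a stricter filter (0.39, adjusted p = 0.0751).

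Markers of several cell types moved with castration, where 23.8% of all genes were lower and 19.8% higher. Macrophage sums were 455 to 736 CPM in castrated glands and 1968 to 3321 CPM in sham glands, with 10 of 12 markers lower. Sham replicate 1 had the lowest of the sham sums and the highest Igf1, 60.8 CPM. Capsule and fibroblast sums were 488 to 609 CPM in castrated glands and 1172 to 1338 CPM in sham glands, with 12 of 12 lower. Of 9 endothelial markers 8 were lower, of 10 medulla markers 10 were lower, and of 8 cortex genes 6 were higher and 1 was lower. Zona glomerulosa markers (6 of 6, median -2.10), Schwann cell markers (6 of 6, median -1.80), erythrocyte genes (5 of 5) and smooth muscle and pericyte markers (3 of 5) were lower, and X-zone markers (2 of 2, median 9.97) were higher. The part of these in the IGF axis results was not tested.

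Age changes within a genotype were compared between neighbouring ages. In male cKO glands at 6 weeks, against 4 weeks, 4 of 10 genes changed (16.6% of all genes did), 3 higher (7.53% of all genes) and 1 lower (9.09%): Igf1 was 3.90-fold higher (log2 1.96 ± 0.36, adjusted p = 0.00189), Igfbp5 3.18-fold higher (1.67 ± 0.19, adjusted p = 6.81e-05) and Igfbp3 1.59-fold higher (0.67 ± 0.19, adjusted p = 0.0213). H19 was lower (-1.86 ± 0.60, adjusted p = 0.0361), at 0.149, 0.5, 2.62 and 0.699 CPM at 6 weeks and 2.33, 2.04, 5.46 and 4.96 CPM at 4 weeks. The H19 call was lost without 4-week replicate 3 or 4 or 6-week replicate 1, 2 or 4 (-1.73 to -1.51, adjusted p 0.0826 to 0.116), and that of Igfbp3 without 4-week replicate 1 or 6-week replicate 3 or 4 (0.60 to 0.64, adjusted p 0.0503 to 0.0625). In the same step 8 of 12 macrophage markers rose and 1 fell. Of 9 endothelial markers 4 rose and 0 fell, and 5 of 5 erythrocyte genes fell. The part of these cells in the age changes was not tested.

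In male cKO glands at 9 weeks, against 6 weeks, Igfbp6 alone was called (0.761% of all genes; 0.41% higher and 0.351% lower), higher by 0.92 ± 0.20 on the log2 scale (adjusted p = 0.0462). That background rested on single libraries: with 1 library left out, 1 to 547 genes were higher and 0 to 798 lower, against 70 and 60, the most without 9-week replicate 1. The Igfbp6 call was lost with any of 6-week replicates 1 to 4 or 9-week replicates 2 to 4 left out (0.78 to 0.97, adjusted p 0.0594 to 0.178). Of these male cKO libraries, 0 of 4 at 6 weeks and 2 of 4 at 9 weeks had title numbers above 24. The number range was not fitted in the age tests. In female cKO glands at 9 weeks, against 6 weeks, 2 genes changed (1.75% of all genes; 0.799% higher and 0.955% lower): H19 was lower (-1.39 ± 0.28, adjusted p = 0.0172) and Igfbp5 higher (0.90 ± 0.20, adjusted p = 0.0251). These calls were lost without 6-week replicate 3 or 9-week replicate 4 for H19 (-1.32 to -1.31, adjusted p 0.0583 to 0.0595), and without 6-week replicate 1 or 3 or 9-week replicate 4 for Igfbp5 (0.73 to 0.89, adjusted p 0.0506 to 0.0875). At 12 against 9 weeks in female cKO glands edgeR called 0 of the 10 genes, with 0 at an unadjusted p under 0.05 (10.03% of all genes) and 0 by DESeq2 (46 higher and 18 lower of all genes).

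Control glands showed no called age change among the 10 genes by edgeR. At an unadjusted p under 0.05 there were 0 and 1 of 10 in females (9 against 6 and 12 against 9 weeks), and 4 and 2 of 10 in males (6 against 4 and 9 against 6 weeks). Of all genes 5.18% and 6.96% in females and 15.9% and 7.02% in males had such a p. DESeq2 called 1 of the 10, a fall, in males at 6 against 4 weeks (143 higher and 145 lower of all genes) and 0 in the other 3. Of all genes edgeR called 0.0702% in males at 6 against 4 weeks (0.041% higher and 0.0293% lower) and 0.0% in the other 3, as in female cKO glands at 12 against 9 weeks.

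The genotype effect itself changed with age in males for 3 of 10 genes (4.92% of all genes). In each case the effect was more positive at 9 than at 4 weeks (2.94% of all genes, and 1.97% the other way). At 4 weeks 0 of 4 cKO glands and 3 of 4 controls had title numbers above 24, and the number range was not fitted in this test. The effect was also more positive at 9 weeks for 5 of 12 capsule and fibroblast and 3 of 12 macrophage markers. The same held for 3 of 5 smooth muscle and pericyte markers, with 0 the other way in these lists. The part of these cells was not tested. For Igf1 the cKO effect at 9 weeks exceeded that at 4 weeks by 2.84 ± 0.50 on the log2 scale (adjusted p = 0.00707). For Igfbp6 the difference was 1.24 ± 0.28 (adjusted p = 0.0187), a smaller fall at 9 weeks. For Igfbp5 it was 0.95 ± 0.26 (adjusted p = 0.0422), a call that was lost without cKO replicate 1 or 3 or control replicate 3 or 4 of 4 weeks, and without any cKO replicate from 2 to 4 or any control of 9 weeks (0.78 to 1.03, adjusted p 0.0549 to 0.0915). In females, between 12 and 6 weeks, edgeR called 0 of 10 (0.322% of all genes; 0.316% upward and 0.00536% downward), with 4 at an unadjusted p under 0.05 (10.4% of all genes) and 1, a positive difference, by DESeq2 (233 positive and 52 negative of all genes). The Igfbp5 difference was 0.98 ± 0.28 (adjusted p = 0.142).

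The cKO effect differed between the sexes for 3 of 10 genes at 6 weeks (7.63% of 17681 genes) and for 4 of 10 at 9 weeks (8.68% of 17824 genes). All these differences, the effect in females minus that in males, were negative (5.08% of all genes at 6 weeks and 5.39% at 9 weeks; positive in 2.55% and 3.29%). Igfbp2 stood out at both ages, at -2.16 ± 0.40 at 6 weeks (adjusted p = 0.00422) and -1.94 ± 0.37 at 9 weeks (adjusted p = 0.00679): a fall in females against values above 0 in males. Without the male cKO library with liver transcripts of that age it was -1.90 (adjusted p = 0.00685) at 6 and -1.83 (adjusted p = 0.0193) at 9 weeks. Igfbp4 differed by -0.58 ± 0.13 (adjusted p = 0.0112) and -0.55 ± 0.12 (adjusted p = 0.0137). At 6 weeks Igfbp5 differed by -1.24 ± 0.28 (adjusted p = 0.0128), with a fall called in females only. At 9 weeks Igf1 differed by -1.71 ± 0.44 (adjusted p = 0.0266), the female rise being smaller, and Igfbp6 by -0.92 ± 0.22 (adjusted p = 0.019), the female fall being deeper. The Igf1 difference was not called without female cKO replicate 3 or 4, female control replicate 1 or male cKO replicate 3 (-1.61 to -1.54, adjusted p 0.0528 to 0.0567). The Igfbp6 difference was not called without male cKO replicate 3 (-0.73, adjusted p = 0.0505), which at 9 weeks is the male library with liver transcripts. The sexes lie in separately counted tables, so only effects are compared. In males at 6 weeks 4 of 4 cKO glands and 0 of 4 controls had title numbers up to 24. The sex differences at 6 weeks therefore cannot be told apart from the number range, which was not fitted in these tests. Negative differences were also called for 2 and 8 of 12 capsule and fibroblast markers at 6 and 9 weeks. So were 6 and 3 of 9 endothelial, 3 and 2 of 6 zona glomerulosa and 2 and 2 of 12 macrophage markers. Positive calls numbered 0 in these lists, and of 10 medulla markers 0 were called. The part of these cells in the sex differences was not tested.

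Other genes of the IGF system, a list of 20 with receptors, proteases, adaptors and RNA-binding proteins, were followed beside the members. Of the 16 tested in females, 3 rose and 5 fell at 6 weeks, 1 and 8 at 9 weeks, and 0 and 5 at 12 weeks. In males the counts were 1 and 5 at 4 weeks, 2 and 4 at 6 weeks, and 1 and 2 at 9 weeks. Of all genes 14.2, 14.6 and 9.11% rose and 19.1, 20 and 16% fell in females, and 6.29, 8.19 and 10.4% rose and 12.9, 11.9 and 13.6% fell in males. The 3 of 16 changed in males at 9 weeks lie below the 24.1% of all genes. The list medians ran from -0.42 to -0.15, against -0.02 to 0.01 for all genes. Insrr, the insulin receptor-related receptor gene, was lower in all 6, for example at 0.827 ± 0.320 CPM in male 6-week cKO glands and 6.15 ± 1.85 CPM in controls (log2 -2.88 ± 0.37, adjusted p = 3.76e-06). Grb14, an adaptor gene that dampens insulin receptor signalling, was at 5.82 ± 1.3 CPM in female 6-week cKO glands and 18.1 ± 1.98 CPM in controls (-1.64 ± 0.16, adjusted p = 5.73e-08). Igf2bp2, which encodes an RNA-binding protein named for Igf2 mRNA, was at 2.57 ± 0.267 CPM in female 9-week cKO glands and 9.38 ± 1.17 CPM in controls (-1.86 ± 0.22, adjusted p = 8.27e-07). Igf2bp3, of the same family, went up, at 2.37 ± 0.406 CPM in male 6-week cKO glands and 0.562 ± 0.276 CPM in controls (2.05 ± 0.43, adjusted p = 0.00135). Ghr, the growth hormone receptor gene, was at 30.0 ± 2.77 CPM in female 6-week cKO glands and 21.3 ± 1.22 CPM in controls (0.49 ± 0.08, adjusted p = 4.97e-05).

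With castration 1 of the 15 tested genes of that list rose, Ghr, and 8 fell (median -1.16), beside 19.8% and 23.8% of all genes. Grb14 was at 12.0 ± 1.52 CPM in castrated glands and 40.04 ± 4.36 CPM in sham glands (-1.74 ± 0.13, adjusted p = 6.33e-06), and Igf2bp2 at 2.49 ± 1.18 CPM in castrated glands and 8.74 ± 0.584 CPM in sham glands (-1.82 ± 0.29, adjusted p = 0.000713).

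The 21 genes of PI3K, AKT and mTOR signalling, downstream of the receptor, had medians near that of all genes in the 6 cKO comparisons (-0.14 to 0.05). In females 3 rose and 5 fell at 6 weeks, 2 and 7 at 9 weeks, and 2 and 2 at 12 weeks; in males the counts were 1 and 2, 2 and 3, and 0 and 4 at 4, 6 and 9 weeks. The shares called were near or below those of all genes at most ages, for example 8 of 21 beside 33.4% in females at 6 weeks, 4 of 21 beside 25.1% at 12 weeks and 4 of 21 beside 24.1% in males at 9 weeks. Pik3r1, a regulatory subunit of PI3K, was lower in all 6, for example at 42.2 ± 4.01 CPM in male 4-week cKO glands and 79.2 ± 8.72 CPM in controls (-0.91 ± 0.09, adjusted p = 9.31e-08). In castrated glands 8 of the 21 were higher and 1 lower (median 0.27), beside 19.8% and 23.8% of all genes. The kinase gene Akt1 was at 644 ± 40.9 CPM in castrated glands and 279 ± 65.6 CPM in sham glands (1.21 ± 0.17, adjusted p = 0.000351), and Akt2 at 362 ± 40.4 CPM in castrated glands and 158 ± 40.1 CPM in sham glands (1.20 ± 0.19, adjusted p = 0.000635).

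Igf2 and H19 belong with other imprinted genes that are highly expressed in growing tissues. Of 15 such genes (Grb10 and Igf2r stand in the IGF list as well, and Dcn among the capsule and fibroblast markers), 8, 11 and 8 fell in cKO females at 6, 9 and 12 weeks and 10, 10 and 8 in cKO males at 4, 6 and 9 weeks, while 1, 1, 0, 0, 0 and 0 rose. Of all genes 19.1, 20 and 16% fell in females and 12.9, 11.9 and 13.6% in males. Medulla, zona glomerulosa, Schwann cell and capsule and fibroblast markers fell in the same comparisons, and their part in this was not tested. The medians ran from -1.67 to -0.56. Dlk1, a paternally expressed gene for a Notch-related membrane protein, was lower at every age, at 27.4 ± 8.08 CPM in female 6-week cKO glands and 293 ± 31 CPM in controls (-3.42 ± 0.26, adjusted p = 1.49e-09), and at 63.4 ± 15.2 CPM in male 6-week cKO glands and 659 ± 152 CPM in controls (-3.38 ± 0.25, adjusted p = 3.93e-09). Maternally expressed Meg3 fell too, at 166 ± 49.9 CPM in female 9-week cKO glands and 940 ± 78.9 CPM in controls (-2.50 ± 0.23, adjusted p = 4.07e-08). In castrated glands 8 of the 15 were lower and 2, Phlda2 and Cdkn1c, were higher than in sham glands (median -1.24), beside 23.8% lower and 19.8% higher of all genes.

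Across the 12 group means of females and males, centred within a sex, each member had genes of like pattern among 13156 or 13157 compared. Igfbp6 was most like Dcn (r = 0.995), Gsn (0.993) and Ogn (0.992). Igf1 was most like Creg1 (0.984), Anpep (0.981) and Vim (0.981), Igf2 like Neurl1a (0.992), Pnmal1 (0.991) and Aldh1a3 (0.990), and Igfbp5 like Pitpnm3 (0.982), Sncg (0.972) and Snx30 (0.962). Igf1r was most like Kif18b (0.970), H19 like Mbd4 (0.959), Igfbp2 like Sh3tc2 (0.964), Igfbp4 like Zcchc24 (0.946), Igfbp7 like Snrpa1 (0.958) and Igfbp3 like 4833413G10Rik (0.851). Among the members, Igfbp6 and Igf2 (0.917), Igfbp4 and Igfbp2 (0.898) and H19 and Igf1r (0.877) were the most alike, and Igfbp7 and Igfbp5 the most opposed (-0.919). These values describe 12 means that share genotype, age and sex, and points from 1 table share its counting. Igfbp2 and Igfbp5 lie 5.46 kb apart on chromosome 1, with an r of 0.273.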

How the data were processed

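Per the labels' protocols, mouse adrenal RNA was poly(A)-selected and made into strand-specific libraries. The authors deposited whole-number counts per gene, not normalised, in 1 table each for females, males and the surgery series. The submitters' processing notes name GRCm38, featureCounts, RSEM 1.6.3, STAR 2.7.6a, DESeq2 1.30.1 and cutadapt 1.16, with no role for each. The sources used here do not say how reads shared by overlapping genes were assigned. The surgery table holds 3024 identifiers absent from the others, so tables were never compared by level. GENCODE M21 supplied symbols for 99.5% of identifiers (94.1% in the surgery table) and exon lengths, and 0 value columns were left unmapped. Libraries of a group differed by more than sampling noise.

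From the counts, R 4.3.3 and edgeR 4.0.16 gave TMM-normalised CPM and quasi-likelihood tests (filterByExpr at a minimum count of 10, Benjamini-Hochberg adjustment, threshold 0.05) on 18645, 17086 and 16961 genes. All groups of a table entered 1 fit, and sex differences came from joint fits with the table absorbed by sex. Standard errors are approximate, computed as the log2 fold change over the square root of F. The scripts were tested on simulated data. Alternatives were DESeq2 1.42.0, relative log expression scaling, library totals alone, no filter, a filter of CPM 5 in 4 libraries, only the libraries compared, the replicate number as a block, the title number range (24 or below, above 24), the reporter allele and leaving out each library. Named genes are the 10 members, at most 4 genes of each other list with the smallest p per comparison, and the 3 genes of most like pattern per member (the first alone for some). Replicates are separate mice, per the design text; sham mice all carry number 1 in the labels and are numbered in accession order. Members and lists were chosen with earlier results of these data known. Depth limits H19, Igfbp2 and above all Igf2, whose counts were at most 51.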

Additional observations from a re-analysis of the deposited data

Results flagged for a closer look

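Of 140 groups of 4 libraries examined, 6 held a library far from the others by Dixon's test, where chance gives about 1 in 20 groups. These were Igf1 in male 6-week cKO replicate 3 (18.8 CPM, against 37.6 to 41.0 CPM in the others), Igfbp6 in male 6-week cKO replicate 1 (15.8 CPM, against 23.8 to 24.2 CPM) and Igf2 in male 6-week control replicate 1 (1.38 CPM, against 0.717 to 0.812 CPM). In male 4-week control replicate 2, H19 was at 8.57 CPM (3.31 to 3.86 CPM in the others) and Igfbp3 at 151 CPM (300 to 327 CPM in the others). Igfbp7 was at 669 CPM in male 9-week control replicate 1 (824 to 847 CPM in the others).

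The genotype effect differed between groups, by the interaction test, in 10 cases. The title number range of the male libraries was not fitted in these tests. In males the effect at 9 weeks minus that at 4 weeks was 2.84 for Igf1, 1.24 for Igfbp6 and 0.95 for Igfbp5 on the log2 scale. Between females and males at 6 weeks it differed by -2.16 for Igfbp2, -1.24 for Igfbp5 and -0.58 for Igfbp4. At 9 weeks it differed by -1.94 for Igfbp2, -1.71 for Igf1, -0.92 for Igfbp6 and -0.55 for Igfbp4.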

How the results depend on the processing

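Of 1355 repeats of 86 single-gene results, 1245 kept direction and call, 80 lost the call, 22 gained it and 8 turned direction, and 0 of 138 group levels moved under relative log expression scaling. The turned ones were all uncalled. H19 and Igf1r in males at 4 weeks were 0.053 and 0.45 with title numbers up to 24 only. With 1 library left out, H19 there ran from -0.60 to 0.075 and Igf1r from -0.29 to 0.11, Igf1r in females at 6 weeks from -0.20 to 0.00089, Igfbp3 at that age from -0.018 to 0.14, and Igfbp7 in males at 6 weeks from -0.015 to 0.17. The cause was not tested.

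The counts of called members moved as follows. The filter of CPM 5 in 4 libraries removes scarce members by construction and left 3 lower in females at 6 weeks and 3 at 9, 1 lower in females at 12 weeks and in males at 6 and 9 weeks, and 0 lower in cKO glands at 9 against 6 weeks (females) and 6 against 4 weeks (males). With castration it left 1 higher, since Igfbp7, which the filter keeps, lost its call; the cause was not tested. In females at 9 weeks the higher count of 1 became 0 with library totals alone, 2 with DESeq2 and with the replicate block, and 3 with only the libraries compared. Title numbers up to 24, with fewer libraries, left 1 lower at 4 weeks and 1 higher and 0 lower at 9 weeks in males. Without a low-count filter 1 was higher in males at 9 weeks, and with library totals alone 1 was higher with castration. DESeq2 gave 1 lower in male controls at 6 against 4 weeks, 1 upward change of effect in females and 5 in males.

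Leaving out 1 library gave ranges of 0 to 1 higher in females at 9 weeks, 1 to 2 higher and 2 to 5 lower at 12 weeks. The 5 lower were reached without cKO replicate 2, the 12-week library with liver transcripts. In males leaving out 1 library gave 2 to 4 lower at 4 weeks, 1 to 2 higher and 2 to 3 lower at 6 weeks, and 1 to 2 in both directions at 9 weeks. It gave 1 to 2 higher with castration; 0 to 1 in both directions for female cKO glands at 9 against 6 weeks; 2 to 4 higher and 0 to 1 lower for male cKO glands at 6 against 4 weeks, and 0 to 1 higher at 9 against 6. For changes of effect it gave 2 to 4 in males with age, and between the sexes 0 to 1 positive and 3 to 4 negative at 6 weeks and 2 to 4 negative at 9 weeks.

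Counts over all genes moved by over 1.5 times in 172 of 610 repeats, 125 with 1 library left out and 47 others, 19 of them with DESeq2. Without control replicate 1, 2460 genes were higher in males at 4 weeks, against 1075, and without cKO replicate 3, 1536 were lower at 9 weeks, against 2331. Left-out libraries gave 47 to 161 genes higher and 10 to 231 lower in female cKO glands at 9 against 6 weeks (149 and 178 with all; fewest without 6-week replicate 3) and 700 to 1430 and 683 to 1580 in male cKO glands at 6 against 4 weeks (1286 and 1553; fewest without 4-week replicate 3). For changes of effect they gave 11 to 128 and 0 to 15 in females (59 and 1; fewest without 12-week cKO replicate 2, most without 12-week cKO replicate 4), and 203 to 821 and 87 to 1360 in males (503 and 337; fewest without 9-week control replicate 1, most without 9-week cKO replicate 1). Between the sexes they gave 183 to 498 positive (451) at 6 weeks, and 272 to 1175 positive and 481 to 1370 negative (587 and 960) at 9 weeks. In males at 4 weeks 1075 genes were higher, against 1647 with DESeq2, 560 with only the libraries compared, 230 with the number range as a covariate and 43 within numbers up to 24; 2200 were lower, against 1433 with the CPM filter and 635 within numbers up to 24. At 6 weeks the covariate gave 488 higher and 1125 lower, against 1399 and 2036, and the CPM filter 1304 lower. At 9 weeks numbers up to 24 gave 137 higher and 487 lower, against 1779 and 2331. In females the CPM filter gave 2461 lower at 9 weeks and 1802 at 12 weeks, against 3722 and 2976.

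Replicate numbers did not pair the libraries: same-numbered cKO and control libraries correlated at -0.253 to 0.107, and 4 of 24 cKO libraries were closest to the control of their number. With the number as a block, Igfbp6 in male cKO glands at 9 against 6 weeks (0.91, adjusted p = 0.0589), which left 0 higher there, and the Igfbp5 change of effect in males (0.94, adjusted p = 0.0508) lost their calls, and Igfbp7 in females (0.33, adjusted p = 0.0267) and Igfbp3 in males (0.54, adjusted p = 0.0306), both at 9 weeks, gained one. No paired analysis was possible for the surgery series because all sham labels carry the number 1.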
